A study of Mus musculus with 12 samples.

Results

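The 10 genes described here handle lipid in macrophages or belong to the program of disease-associated microglia, and they were measured in 3 mouse cell lines: Apoe, Lpl, Abca1, Abcg1, Lgals3, Gpnmb, Spp1, Cd36, Msr1 and Plin2. They form a fixed list of names that uses no threshold on measured values, although earlier results of these data were known when it was drawn up, and are 10 of the 25128 genes and unnamed targets of the array. Each was read by 3 probes of 1 transcript, and all 10 were found. RNA came from 4 plates each of BV2, an immortalized mouse microglial line, N18, a mouse neuroblastoma line, and a line labelled AtT20, a mouse pituitary tumor line of corticotroph origin. The labels give no genetic change for any of the 12 plates. All were grown in DMEM with fetal bovine serum and antibiotics, left without treatment and hybridized singly to Cy3 arrays. The study states that BV2 was kept under conditions that favor a resting rather than an activated state. The labels call the 4 plates of a line biological replicates. The p-values below thus rest on the spread between plates of the same line, pooled over the 3 lines. Each cell type is represented by 1 line that has been kept in culture.

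Macrophages and microglia take up lipoproteins, cell debris and myelin through scavenger receptors such as CD36 and MSR1. They store the lipid in droplets coated by perilipins, hydrolyze it, and export cholesterol through the transporters ABCA1 and ABCG1 to particles that carry apolipoprotein E. Microglia near plaques or damaged myelin turn on a set of genes that holds Apoe, Lpl, Lgals3, Gpnmb and Spp1 together with the receptor TREM2 and its adaptor TYROBP, while genes of surveying microglia are turned down.

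The level of a gene is given on the log2 scale as its mean probe intensity relative to the mean of 10 seminal proteins on the same plate, which stand for no expression. The threshold for expression was 2 SD of those proteins averaged over the plates, which came to 0.56 ± 0.15 for BV2, 0.74 ± 0.10 for N18 and 0.37 ± 0.11 for the AtT20-labelled plates (SD, n = 4 plates). Levels can be compared between lines for 1 gene but not between genes, since probes differ in how brightly they hybridize. The labels were checked against marker genes. Of 9 microglia and macrophage markers, 8 were above the threshold in BV2, 2 in N18 and 0 on the AtT20-labelled plates, and of 10 markers of sympathetic neuroblasts, all 10 were above it in N18, 6 in BV2 and 5 on the AtT20-labelled plates. Of 7 corticotroph markers 1 was above it on the AtT20-labelled plates, against 4 in N18 and 2 in BV2, and Pomc, the hormone precursor that defines corticotrophs, was not, so this group is named by its label throughout. Array medians were 10.85 to 11.50 on those plates, against 9.90 to 10.28 in BV2 and 10.10 to 10.54 in N18, and the interquartile range over probes was 0.378 to 0.782 there, against 1.28 to 1.73 and 1.91 to 2.21.

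Of the 10 genes, BV2 expressed 9 above the threshold, N18 expressed 3, and the AtT20-labelled plates expressed 0. Over all genes and targets the shares above the threshold were 53.3%, 55.4% and 35.0%. The 9 genes in BV2 were all but Gpnmb, and 7 of them were above the threshold of each of the 4 plates. The 3 genes in N18 were Abca1, Abcg1 and Plin2, the transporters and the droplet coat protein. RNA was pooled over all cells of a plate, so fewer cells expressing a gene and less RNA per cell cannot be told apart.

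**Figure D1:**
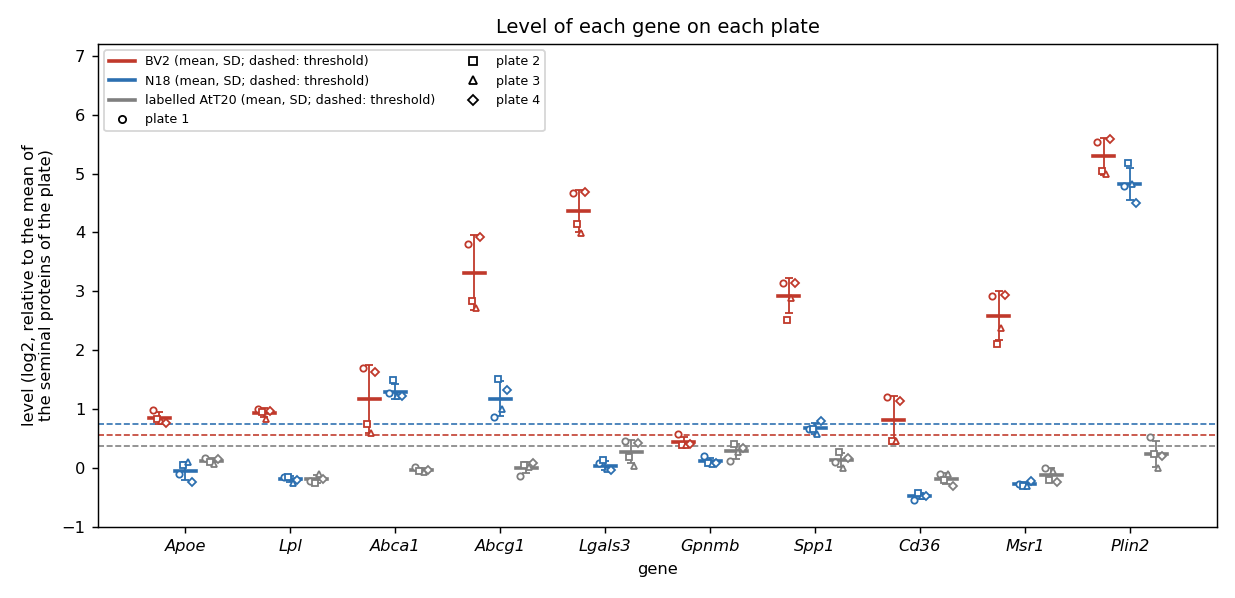
Level of each of the 10 genes on each plate (log2, seminal protein mean of the plate set to 0). Symbols are the 4 plates, horizontal bars the mean, error bars 1 SD, and dashed lines the threshold of each line. In BV2 only Gpnmb has a mean below the threshold, in N18 Plin2, Abca1 and Abcg1 stand above it, and on the AtT20-labelled plates all 10 means lie between -0.19 and 0.28.

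Promoter sequences were at hand for 7 of the 10 genes, as 10 windows that run from 250 bases before to 50 bases after a transcript start (RefSeq, assembly GRCm38.p6). The first 3 windows below are shown because they hold motifs of factors that act on lysosomal, lipid and myeloid genes, and Lgals3 and Gpnmb are shown as the genes of this set with a high and an undetected level in BV2. Capitals mark CACGTG, the E-box read by MiT and USF factors, GAGGAAGT, a PU.1 (Spi1) motif, and TATAAA, the TATA box.

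Abca1 promoter window (chr4:53159846-53160145, minus strand): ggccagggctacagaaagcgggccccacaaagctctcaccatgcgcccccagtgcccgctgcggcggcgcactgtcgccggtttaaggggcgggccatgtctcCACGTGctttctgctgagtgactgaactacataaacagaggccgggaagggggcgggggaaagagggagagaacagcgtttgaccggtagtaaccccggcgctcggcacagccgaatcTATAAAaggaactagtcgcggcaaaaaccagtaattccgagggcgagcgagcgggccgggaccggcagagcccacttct
Plin2 promoter window (chr4:86670010-86670309, minus strand): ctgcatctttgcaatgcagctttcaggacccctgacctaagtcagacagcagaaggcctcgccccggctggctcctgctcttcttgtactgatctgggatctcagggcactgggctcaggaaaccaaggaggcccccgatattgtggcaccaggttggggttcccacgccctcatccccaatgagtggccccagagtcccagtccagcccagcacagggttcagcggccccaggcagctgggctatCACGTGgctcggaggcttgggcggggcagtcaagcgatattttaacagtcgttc
Spp1 promoter window (chr5:104434861-104435160, plus strand): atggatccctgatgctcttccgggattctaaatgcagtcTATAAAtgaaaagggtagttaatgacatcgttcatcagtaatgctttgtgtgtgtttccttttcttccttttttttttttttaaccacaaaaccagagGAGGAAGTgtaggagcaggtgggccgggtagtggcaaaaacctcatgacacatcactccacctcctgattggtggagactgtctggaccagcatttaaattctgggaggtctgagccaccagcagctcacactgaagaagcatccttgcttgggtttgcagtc
Lgals3 promoter window (chr14:47373610-47373909, plus strand): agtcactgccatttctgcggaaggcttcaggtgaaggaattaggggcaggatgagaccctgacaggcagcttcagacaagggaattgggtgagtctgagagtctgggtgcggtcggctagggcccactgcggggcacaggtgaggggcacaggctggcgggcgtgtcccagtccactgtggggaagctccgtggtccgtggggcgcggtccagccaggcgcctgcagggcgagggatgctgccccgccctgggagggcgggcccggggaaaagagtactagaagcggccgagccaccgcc
Gpnmb promoter window (chr6:49036268-49036567, plus strand): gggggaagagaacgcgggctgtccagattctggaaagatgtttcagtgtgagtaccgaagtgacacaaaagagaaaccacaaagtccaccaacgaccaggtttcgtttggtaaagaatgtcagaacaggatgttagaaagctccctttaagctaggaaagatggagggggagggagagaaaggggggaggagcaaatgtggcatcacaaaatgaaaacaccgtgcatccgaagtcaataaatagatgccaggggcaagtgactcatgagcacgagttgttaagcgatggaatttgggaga

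Counted from the transcript start, CACGTG began at -147 in the Abca1 window and at -4 in the Plin2 window, and 7.15% of all 32851 windows held it on either strand. GAGGAAGT began at -113 in the Spp1 window and was found in 3.2% of all windows. TATAAA began at -29 in Abca1, at -211 in Spp1 and at -100 and -96 in the second of 3 windows of Apoe, against 13.6% of all windows. The other motifs searched, each on both strands, were TCATGTG (3.77% of windows), an E-box variant read by MiT factors, the DR1 repeat bound by PPAR (0.0396%) and the DR4 repeat bound by LXR (0.0152%), and none of them was in a window of the 7 genes. The PPAR and LXR repeats share their half-site and were searched only as exact copies of it. Elements with a changed base in a half-site were not looked for, so a PPAR or LXR element in these windows, including that of Abca1, is not excluded. The matches at -100 and -96 in Apoe overlap on opposite strands. The windows of Lgals3, Gpnmb and Cd36 held none of the 6 motifs. Such matches describe the letters of a window and say nothing of binding in these cells.

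Apoe encodes the apolipoprotein that microglia and astrocytes secrete on lipid particles. Its level on the 4 BV2 plates was 0.99, 0.83, 0.80 and 0.77, a mean of 0.85 ± 0.10 (SD, n = 4). It ranged from -0.24 to 0.10 on the N18 plates and from 0.07 to 0.16 on the AtT20-labelled plates. On this scale all 4 BV2 plates were thus above all plates of both other lines, whose means were below their thresholds. After quantile normalization of the 12 arrays, the scale used for every comparison below, Apoe was higher in BV2 than in N18 by 0.86 ± 0.10 (log2 difference ± SE, limma adjusted p = 1.59e-06). Since N18 was below the threshold, this amounts to a level at least 1.07-fold higher, computed against the threshold rather than against the dim N18 value and taken as the smallest bound of 3 scalings, as for all such folds below. Between BV2 and the AtT20-labelled plates the difference was 0.12 (95% interval -0.09 to 0.32, adjusted p = 0.282), and its direction depended on the scaling, at 0.73 against the seminal proteins and -0.64 without normalization.

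Lpl encodes lipoprotein lipase, which releases fatty acids from lipoprotein triglycerides. Its level was 1.01, 0.95, 0.84 and 0.97 on the BV2 plates (0.94 ± 0.07), and the 4 values lay within 0.17 of each other. N18 ranged from -0.25 to -0.15 and the AtT20-labelled plates from -0.25 to -0.10. The BV2 plates were well apart from the other 8, which overlapped with each other, and Lpl was higher in BV2 than in N18 by 1.05 ± 0.09 (adjusted p = 8.79e-08), at least 1.1-fold against the threshold. The difference from the AtT20-labelled plates was 0.98 ± 0.09 (adjusted p = 6.87e-08), and -0.23 without normalization.

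Cd36 and Msr1 encode scavenger receptors, CD36 for oxidized lipoproteins and long-chain fatty acids and MSR1 for modified lipoproteins and many polyanions. The level of Cd36 on the BV2 plates was 1.21, 0.46, 0.46 and 1.14. Plates 1 and 4 were above the BV2 threshold of 0.56 by a wide margin, while plates 2 and 3 were below it. Against the threshold of its own plate, plate 2 was above (0.39) and plate 3 was below (0.75). On the N18 plates it ranged from -0.55 to -0.42 and on the AtT20-labelled plates from -0.31 to -0.10, all below zero. Every BV2 plate exceeded every other plate in Cd36. The difference from N18 was 1.11 ± 0.12 (adjusted p = 1.03e-06), at least 1.05-fold against the threshold. The difference from the AtT20-labelled plates was 0.82 ± 0.12 (adjusted p = 1.12e-05), and -0.37 without normalization.

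Msr1 was well above the threshold on each BV2 plate, at 2.92, 2.10, 2.38 and 2.94 (2.58 ± 0.42). It ranged from -0.31 to -0.22 in N18 and from -0.23 to 0.00 on the AtT20-labelled plates, and no BV2 plate came near these values. Msr1 was higher in BV2 than in N18 by 2.62 ± 0.12 (adjusted p = 2.78e-11) and than on the AtT20-labelled plates by 2.28 ± 0.12 (adjusted p = 6.44e-11). Against the thresholds these are at least 3.5-fold and at least 1.8-fold.

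Abca1 and Abcg1 encode the transporters that hand cholesterol to lipid-poor and to mature lipoprotein particles, respectively, and both are textbook targets of the oxysterol receptors LXR. Abca1 reached 1.70, 0.75, 0.59 and 1.63 on BV2 plates and 1.27, 1.49, 1.21 and 1.22 on the N18 plates. The BV2 plates spread on both sides of the N18 plates, with plates 1 and 4 above and plates 2 and 3 below, and the means were 1.17 ± 0.58 and 1.30 ± 0.13. The difference was 0.22 (95% interval -0.08 to 0.53, adjusted p = 0.239), which turned to -0.13 against the seminal proteins and -0.10 without normalization. Leaving out BV2 plate 3 gave 0.38 (adjusted p = 0.0281), while leaving out BV2 plate 1 gave 0.12 (adjusted p = 0.553) and BV2 plate 4 gave 0.11 (adjusted p = 0.58). Over the 23 alternatives that set no minimum size of a difference the adjusted p ran from 0.0281 to 0.955. The AtT20-labelled plates ranged from -0.07 to 0.01, below every other plate. BV2 was higher than these by 0.79 ± 0.14 (adjusted p = 0.000132) and N18 by 0.56 ± 0.14 (adjusted p = 0.00223), but without normalization these differences were -0.16 and -0.063.

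Abcg1 differed clearly between the lines that expressed it. Its level was 3.80, 2.83, 2.71 and 3.93 on BV2 plates and 0.86, 1.51, 1.00 and 1.32 on the N18 plates, and -0.13 to 0.09 on the AtT20-labelled plates. The 3 lines did not overlap on this scale, in the order BV2, N18 and the AtT20-labelled plates. Abcg1 was 5.45-fold higher in BV2 than in N18 (log2 difference 2.45 ± 0.17, adjusted p = 7.14e-09), and at least 3.0-fold higher than on the AtT20-labelled plates (log2 difference 2.83 ± 0.17, adjusted p = 4.33e-10). N18 and the AtT20-labelled plates differed by 0.39 (95% interval 0.02 to 0.75, adjusted p = 0.0545), which was 1.17 against the seminal proteins and -0.22 without normalization. This last comparison lay close to the threshold of the test, with an adjusted p of 0.0474, 0.0463, 0.0381, 0.0418 and 0.0393 after leaving out AtT20-labelled plate 3 or 4, BV2 plate 3 or 4, or N18 plate 1. The difference was 0.24 (adjusted p = 0.182) after leaving out AtT20-labelled plate 1, and the adjusted p ran from 0.000184 to 0.34 over the 23 alternatives without a minimum size.

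Plin2 encodes perilipin 2, the coat protein of lipid droplets in cells other than adipocytes. It was 5.53, 5.05, 4.99 and 5.59 on BV2 plates and 4.80, 5.17, 4.83 and 4.49 on N18 plates, far above the threshold in both. On this scale the lines overlapped, with N18 plate 2 above BV2 plates 2 and 3. After quantile normalization the plates were 15.21, 15.09, 15.05 and 15.11 in BV2 and 14.19, 14.36, 14.30 and 13.88 in N18 (log2 intensity), with no overlap, and Plin2 was 1.91-fold higher in BV2 (log2 difference 0.93 ± 0.17, adjusted p = 0.000249). The size depended on the scaling, at 0.47 against the seminal proteins (adjusted p = 0.131) and 0.50 without normalization (adjusted p = 0.0726), neither past the test, and the adjusted p ran from 1.19e-07 to 0.131 over the 23 alternatives without a minimum size of a difference. The AtT20-labelled plates ranged from -0.01 to 0.53. Plin2 was at least 11.8-fold higher in BV2 (adjusted p = 1.96e-12) and at least 7.5-fold higher in N18 (adjusted p = 3.05e-11) than on those plates.

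Lgals3 encodes galectin-3, a secreted lectin that binds galactosides on glycoproteins and damaged lysosomes. Its level was 4.66, 4.14, 3.99 and 4.69 on BV2 plates, 0.08, 0.14, -0.02 and -0.03 on the N18 plates and 0.45, 0.18, 0.04 and 0.42 on the AtT20-labelled plates. BV2 stood apart from all 8 other plates by more than its own spread of 0.69. The fitted difference of Lgals3 between BV2 and N18 was 4.34 ± 0.15 (adjusted p = 9.55e-13), at least 12.3-fold against the threshold. It was at least 6.2-fold higher in BV2 than on the AtT20-labelled plates (log2 difference 3.32 ± 0.15, adjusted p = 1.28e-11).

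Spp1 encodes osteopontin, a secreted phosphoprotein that binds CD44 and several integrins. Its level was 3.14, 2.52, 2.88 and 3.15 on BV2 plates and 0.66, 0.66, 0.58 and 0.79 on the N18 plates, of which plate 4 alone was above its threshold. The AtT20-labelled plates gave 0.10, 0.27, 0.00 and 0.17. On this scale no plates of different lines overlapped. After quantile normalization those of N18 and the AtT20-labelled plates overlapped (log2 difference -0.25, limma adjusted p = 0.059). Spp1 was at least 4.5-fold higher in BV2 than in N18 (log2 difference 2.31 ± 0.11, adjusted p = 7.51e-11) and at least 2.2-fold higher than on the AtT20-labelled plates (log2 difference 2.06 ± 0.11, adjusted p = 1.31e-10).

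Gpnmb encodes a transmembrane glycoprotein of melanosomes and lysosomes that rises in foam cells and in plaque-associated microglia. It was the only one of the 10 below the threshold in all 3 lines, though without the highest seminal protein its levels in BV2 (0.49) and on the AtT20-labelled plates (0.32) were above the lowered thresholds. Its level was 0.57, 0.39, 0.40 and 0.40 on BV2 plates, 0.20, 0.08, 0.07 and 0.09 on the N18 plates and 0.11, 0.41, 0.28 and 0.33 on the AtT20-labelled plates. The BV2 plates were above the N18 plates, and the AtT20-labelled plates overlapped with both on this scale. Because all 3 means were below their thresholds, no fold is given and the direction of a call is not read as a result. In limma the adjusted p was 0.0232 between BV2 and N18, with BV2 higher. Between BV2 and the AtT20-labelled plates it was 0.000464, with a difference of -0.62. That difference was 0.16 against the seminal proteins. Leaving out AtT20-labelled plate 1 raised the mean of that group to 0.34, above its threshold.

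Taking BV2 against N18 as a whole, 9 of the 10 genes were called higher in BV2, 8 of them with at least 1 line above the threshold, and 0 were called lower. Of all 25128 genes and targets 21.9% were called higher and 19.0% lower. The plates of 9 genes, all but Abca1, did not overlap after quantile normalization and were higher in BV2, against 31.9% of all. The median difference of the 10 genes was 1.08, against 0.06 over all. The count was 7 without normalization and 8 against the seminal proteins, while the share of higher among all calls went from 53.5% to 19.8% and 25.3%. Against the AtT20-labelled plates, 8 of the 10 genes were called higher in BV2 (26.6% of all), all but Apoe and Gpnmb, and Gpnmb, below the threshold in both, was the 1 called lower (47.0% of all). The plates of the same 8 genes did not overlap, against 22.9% of all, and after quantile normalization those of Gpnmb did not overlap in the other direction, against 39.7%. Between N18 and the AtT20-labelled plates, Abca1 and Plin2 were called higher in N18 (27.8% of all), and the 5 genes called lower (48.6% of all) were below the threshold in both lines. The plates did not overlap for 2 genes that were higher in N18 (24.9% of all) and for 4 that were lower (43.3% of all). The median of all genes lay at -0.23 and -0.25 in these comparisons after quantile normalization, at 0.28 and 0.54 against the seminal proteins and at -1.08 and -0.85 without normalization, so a difference of that size against the AtT20-labelled plates has no settled direction. The share of higher among all calls went from 36.2% to 74.2% against the seminal proteins and 13.5% without normalization for BV2, and from 36.4% to 78.8% and 24.03% for N18. The 2 comparisons of BV2 share the BV2 plates.

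**Figure D2:**
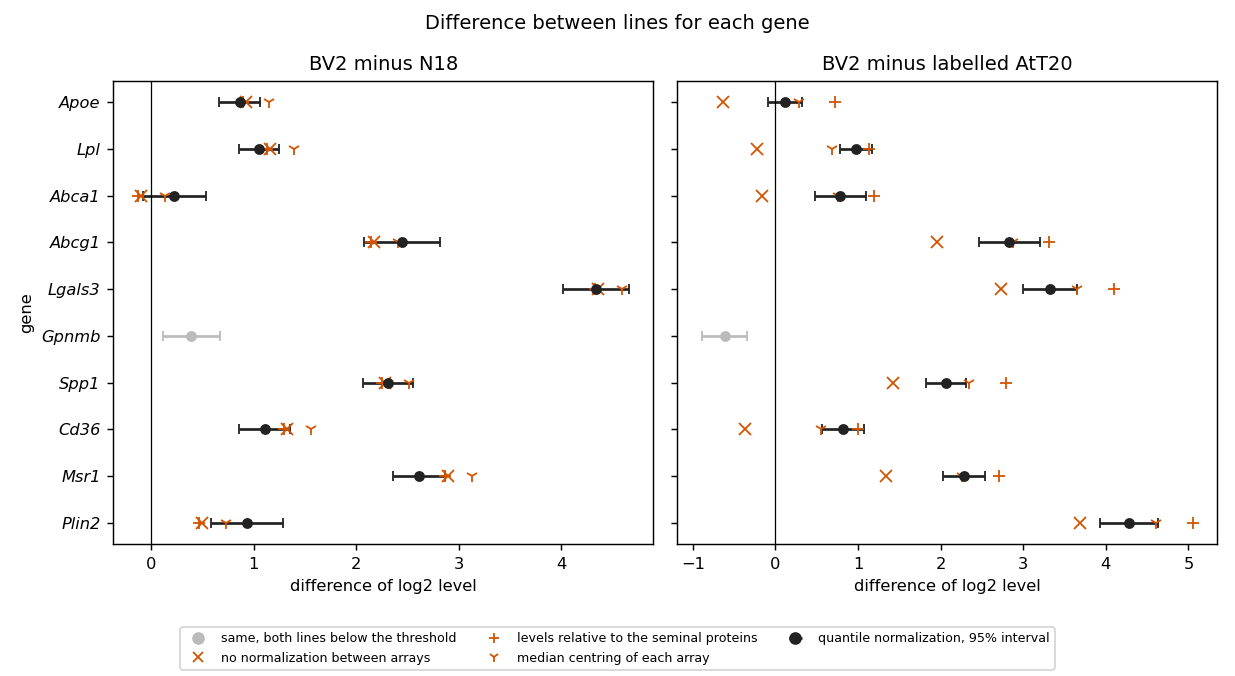
Difference of log2 level between BV2 and N18 (left) and between BV2 and the AtT20-labelled plates (right) for each of the 10 genes. Circles with bars are the limma estimate and 95% interval after quantile normalization, grey where both lines were below the threshold, and the other symbols, not drawn for Gpnmb, are the estimates under 3 other scalings. On the left only Abca1 changes sign, and on the right Apoe, Lpl, Abca1 and Cd36 are below zero without normalization.

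The plates of BV2 differed among themselves in some of these genes more than in others. In Abca1, Abcg1, Cd36, Lgals3 and Plin2, plates 1 and 4 had higher levels than plates 2 and 3, and the same held for Spp1, Msr1 and Lpl. Quantile normalization reduced the range of Lgals3 over the BV2 plates from 0.69 to 0.18 and that of Plin2 from 0.60 to 0.15. The range of Abca1 went from 1.11 to 0.79, that of Abcg1 from 1.22 to 0.78 and that of Cd36 from 0.75 to 0.45. The values of Abca1 after normalization were 11.34, 10.87, 10.59 and 11.37 and those of Abcg1 13.34, 13.01, 12.76 and 13.54, so plates 1 and 4 remained the higher ones in both transporters. The same held for Cd36, Msr1 and Plin2. It was lost in Lgals3 (14.26, 14.40, 14.22 and 14.31), Spp1 (12.61, 12.65, 12.91 and 12.71) and Lpl (10.79, 11.07, 10.81 and 10.82). Apoe did not have plates 1 and 4 highest on either scale, since plate 4 was the lowest of the BV2 plates.

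The 3 probes of a gene were of unequal brightness, and for some genes the call rested on 1 of them. All 3 probes of Abca1, Abcg1, Lgals3, Spp1, Msr1 and Plin2 were above the threshold in BV2. For Cd36 a single probe was above it in BV2, at 1.65, while the others were at 0.07 and 0.06. For Apoe likewise 1 probe was above it, at 1.44, beside 0.38 and 0.45. Had probes been summarised by their median, Apoe (0.49) and Cd36 (0.23) would have been below the threshold in BV2. Lpl had 2 probes above it in BV2, at 0.76 and 1.48, and Gpnmb had 1, at 0.93. For 8 of the 10 genes each of the 3 probes was higher on all BV2 plates than on all N18 plates, against 10.2% of all 20740 targets with 3 probes. The exceptions were Cd36 with 2 such probes and Abca1 with 0, and the 8 include Gpnmb, below the threshold in both lines. The probe identifiers carry the numbers 108, 116 and 124 for Spp1, and 384 and 394 for Apoe. If these are base positions, those probes overlap and are not independent readings. The probes of Plin2 disagreed most, at 5.35, 6.21 and 0.99 in BV2 and 4.61, 5.89 and 0.35 in N18. The brightest single value of a probe of these genes was 15.92, for the second probe of Plin2 in BV2. It equals the highest value of any probe on BV2 plate 1. No probe of these genes was at the upper limit of the scanner, but compression of Plin2 just below that limit was not tested.

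**Figure D3:**
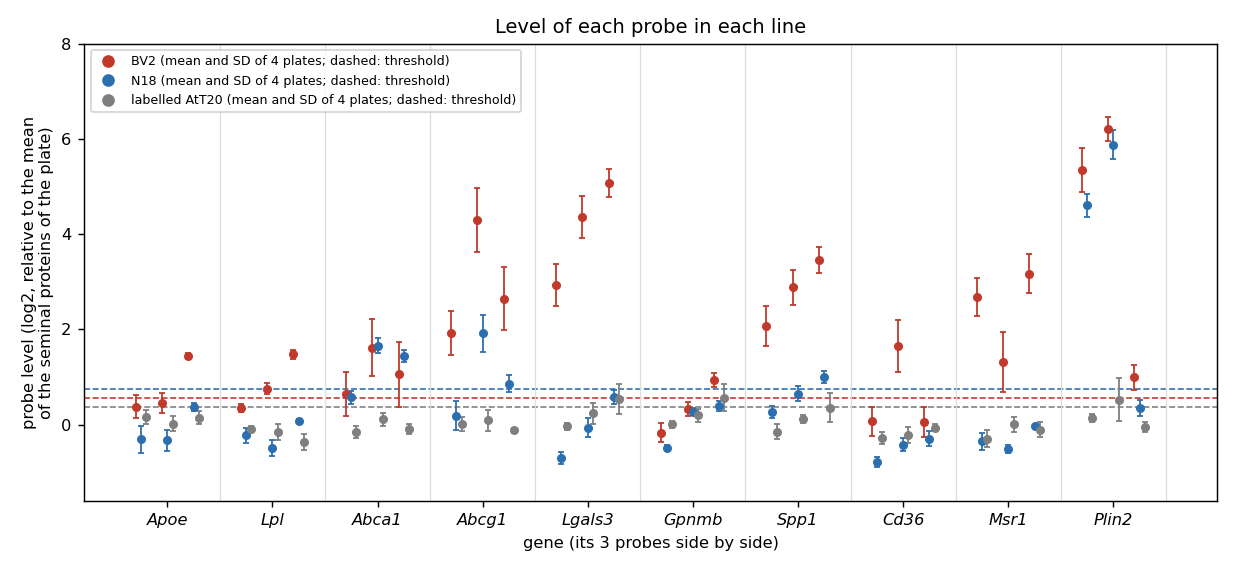
Level of each of the 3 probes of the 10 genes in each line (log2, seminal protein mean of the plate set to 0). Points are means of 4 plates, bars 1 SD and dashed lines the thresholds. A single probe of Cd36 (1.65) and of Apoe (1.44) is above the BV2 threshold, and the third probe of Plin2 (0.99 in BV2, 0.35 in N18) is far dimmer than the others.

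The genes that work with these 10 were taken from lists. Of 20 lipoprotein and scavenger receptors, BV2 and N18 each had 11 above the threshold and the AtT20-labelled plates had 7, and 6 were called higher and 6 lower in BV2 than in N18 (5 and 7 against the seminal proteins). Colec12, a scavenger receptor with a collagen domain, was 3.63 ± 0.37 in BV2 and 0.49 ± 0.35 in N18 (adjusted p = 4.95e-12). Sorl1, a sorting receptor that binds apolipoprotein E, was 2.57 ± 0.30 in BV2 and 0.09 ± 0.08 in N18 (adjusted p = 5.86e-12), and Stab1, the scavenger receptor stabilin-1, was 2.64 ± 0.41 in BV2 and 0.46 ± 0.11 in N18 (adjusted p = 1.71e-09). The receptors higher in N18 included Scarb1, the receptor for high-density lipoprotein, at 1.98 ± 0.23 in BV2 and 3.87 ± 0.34 in N18 (adjusted p = 2.47e-06), and Axl, a receptor for bridging molecules on dying cells, at 0.20 ± 0.08 in BV2 and 2.20 ± 0.19 in N18 (adjusted p = 1.44e-08). Scarb2, a lysosomal membrane protein, was 0.77 ± 0.27 in BV2 and 3.20 ± 0.33 in N18 (adjusted p = 0.00109).

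Of 19 genes of cholesterol efflux and LXR, 16 were above the threshold in BV2 and 15 in N18, 9 were called higher in BV2 and 4 lower, but 3 and 7 against the seminal proteins and 3 and 8 without normalization, and their median went from 0.15 to -0.14 and -0.11. Arl4c, a small GTPase gene that LXR activates, was 2.62 ± 0.53 in BV2 and 0.21 ± 0.09 in N18 (adjusted p = 4.12e-10). Apoc1, an apolipoprotein gene in the cluster of Apoe, was 2.03 ± 0.13 in BV2 and 1.22 ± 0.23 in N18 (adjusted p = 0.000116), and Npc2, which carries cholesterol out of the lysosome, was 2.14 ± 0.38 in BV2 and 1.42 ± 0.11 in N18 (adjusted p = 5.12e-07). The genes higher in N18 included Pltp, the phospholipid transfer protein, at 0.91 ± 0.29 in BV2 and 3.92 ± 0.18 in N18 (adjusted p = 4.84e-10), and Srebf1, a regulator of fatty acid synthesis that LXR activates, at 0.74 ± 0.26 in BV2 and 2.43 ± 0.19 in N18 (adjusted p = 8.45e-06). Abcg2, a relative of Abcg1, was -0.44 ± 0.13 in BV2 and 0.79 ± 0.23 in N18 (adjusted p = 4.46e-06). The LXR-activated genes Arl4c and Srebf1 were thus on opposite sides, under a rule that names genes in each direction. The activity of LXR was not tested.

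Of 32 genes of fatty acid uptake, storage and lipolysis, 24 were above the threshold in BV2, 22 in N18 and 9 on the AtT20-labelled plates. Here 13 were called higher in BV2 and 0 lower, but 8 and 7 against the seminal proteins and 7 and 5 without normalization. Fabp4, a fatty acid binding protein of adipocytes and macrophages, was 4.85 ± 0.34 in BV2 and -0.10 ± 0.10 in N18 (adjusted p = 1.19e-14). Lipa, the lysosomal acid lipase, was 2.74 ± 0.37 in BV2 and 0.85 ± 0.14 in N18 (adjusted p = 1.40e-10), and Dgat2, which makes triglyceride, was 3.55 ± 0.37 in BV2 and 2.29 ± 0.24 in N18 (adjusted p = 8.14e-09). These 3 genes were called higher in BV2 under all 4 scalings. Of 7 adipocyte markers 2 were above the threshold in BV2, 2 in N18 and 3 on the AtT20-labelled plates. Of 9 regulators of the PPAR and MiT families, 3 were called higher and 2 lower in BV2, but 0 and 4 against the seminal proteins. Among the 2 called lower was Pparg, the PPAR that activates Cd36, Fabp4 and Plin2 in macrophages. It was 0.17 ± 0.07 in BV2 and 2.15 ± 0.35 in N18 (adjusted p = 5.47e-08). The 3 called higher in BV2 went the other way, and the activity of PPAR was not tested.

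Of 28 other disease-associated microglia genes, 24 were above the threshold in BV2, 19 in N18 and 12 on the AtT20-labelled plates, with 18 called higher and 6 lower in BV2 than in N18 (13 and 6 against the seminal proteins, 12 and 7 without normalization). Lyz2, lysozyme, was 5.97 ± 0.25 in BV2 and 0.60 ± 0.08 in N18 (adjusted p = 1.12e-14), Ccl3, a chemokine, was 5.04 ± 0.36 in BV2 and 0.76 ± 0.12 in N18 (adjusted p = 1.15e-13), and Tyrobp, the adaptor of TREM2, was 4.12 ± 0.52 in BV2 and 1.12 ± 0.14 in N18 (adjusted p = 1.96e-12). Trem2 itself, named here after its values were seen, was 1.23 ± 0.18 in BV2 and 1.52 ± 0.10 in N18. After quantile normalization the difference was 0.18 the other way, higher in BV2, and was not called (adjusted p = 0.159). Cd63, a tetraspanin of lysosomes found in many cell types, was lower in BV2, at 1.87 ± 0.22 in BV2 and 5.94 ± 0.14 in N18 (adjusted p = 5.27e-10). The adhesion molecule Cadm1 was 0.74 ± 0.03 in BV2 and 4.70 ± 0.23 in N18 (adjusted p = 2.09e-12), and Timp2, an inhibitor of matrix proteases, was 0.80 ± 0.05 in BV2 and 4.09 ± 0.23 in N18 (adjusted p = 1.80e-09). Of 16 genes of homeostatic microglia 7 were above the threshold in BV2 and 7 in N18, with 5 called higher and 4 lower in BV2 (9 and 4 with median centring, 3 and 4 without normalization). Csf1r, the receptor for the survival factors of microglia, was 4.70 ± 0.39 in BV2 and -0.06 ± 0.12 in N18 (adjusted p = 1.19e-14), while Sparc, a matrix protein, was 0.56 ± 0.10 in BV2 and 4.92 ± 0.07 in N18 (adjusted p = 1.31e-12).

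Of 7 genes for receptors of osteopontin, 6 were above the threshold in BV2 and 6 in N18, with 2 called higher and 5 lower in BV2 (1 and 5 against the seminal proteins). Cd44 was 3.05 ± 0.29 in BV2 and 0.27 ± 0.12 in N18 (adjusted p = 8.79e-09). The integrin subunit genes Itgb3, at 0.65 ± 0.12 in BV2 and 2.65 ± 0.33 in N18 (adjusted p = 2.81e-06), and Itgb1, at 3.71 ± 0.43 in BV2 and 5.34 ± 0.13 in N18 (adjusted p = 1.83e-06), were higher in N18. Of 16 relatives of the 10 genes, 11 were above the threshold in BV2 and 6 in N18, with 7 called higher and 1 lower in BV2 (6 and 4 against the seminal proteins). Lgals9, another galectin, was 2.41 ± 0.41 in BV2 and 1.92 ± 0.14 in N18 (adjusted p = 0.000253). Lgals3bp, a secreted glycoprotein that binds galectin-3, was on the other side, at 1.96 ± 0.55 in BV2 and 4.16 ± 0.24 in N18 (adjusted p = 4.81e-07).

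**Figure D4:**
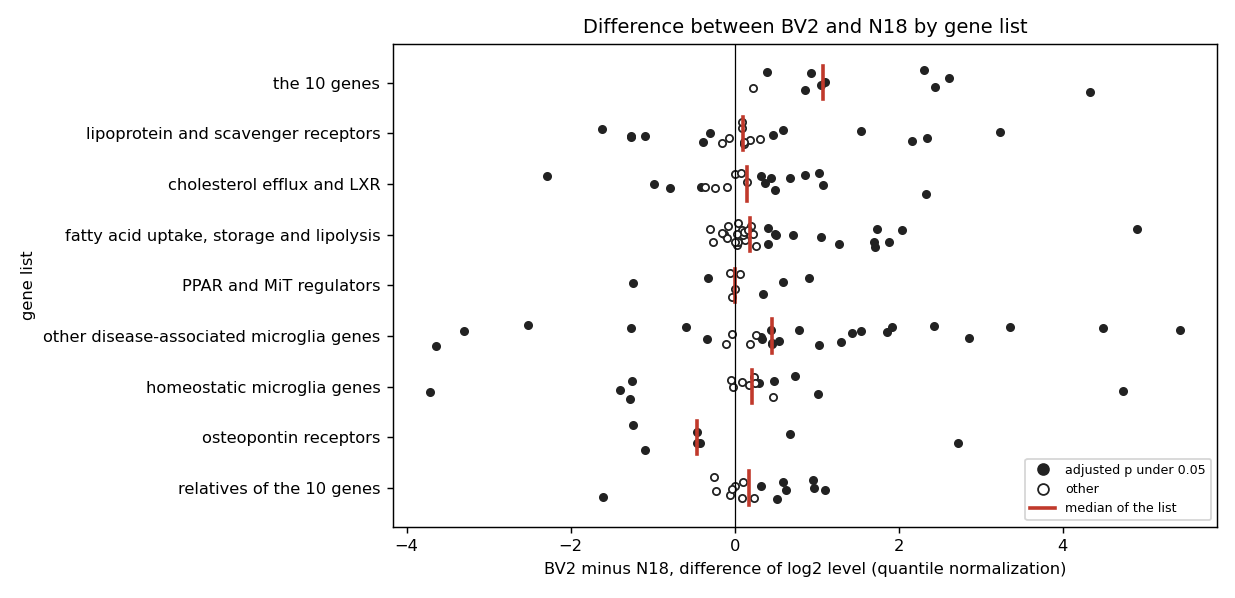
Difference of log2 level between BV2 and N18 after quantile normalization for the 10 genes and for 8 lists of related genes. Each circle is a gene, filled where the adjusted p was under 0.05, and vertical bars are medians. All 10 genes lie at or above 0.22, with a median of 1.08, while the other lists spread to both sides of zero, with medians from -0.46 to 0.45.

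The genes whose pattern over the 12 arrays was most like each of the 10 were sought among 12172 named genes above the threshold in at least 1 line, by Pearson correlation after quantile normalization. Such correlations describe 12 arrays of 3 lines and carry the differences between the lines as well as those between plates. Lgals3 was closest to Fcer1g (r = 0.997), the common chain of Fc receptors, and Slfn2 (r = 0.995). Spp1 was closest to Ptgs2 (r = 0.994), the inducible cyclooxygenase, and to Cd14 (r = 0.994), the coreceptor for lipopolysaccharide. Msr1 was closest to Pid1 and Gvin1 (r = 0.997 for both). Lpl was closest to Plekho2 (r = 0.993) and to Scd1 (r = 0.990), a fatty acid desaturase. Cd36 was closest to Arl4c (r = 0.985), the LXR-activated gene described above, and Slfn9 (r = 0.983). The levels of Arl4c on the BV2 plates, relative to the seminal proteins, were 3.05, 2.21, 2.12 and 3.12. Plates 1 and 4 were above plates 2 and 3, as in Cd36 and most of the 10 genes on that scale. Abcg1 was closest to Msrb1 (r = 0.992), Apoe to Armh3 (r = 0.992) and Abca1 to Ccny (r = 0.949). Plin2, expressed in BV2 and N18, was closest to Actr3 (r = 0.997), a subunit of the actin-nucleating Arp2/3 complex.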

How the data were processed

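Total RNA from 12 plates of 3 mouse lines was copied into cDNA, labelled with Cy3 and hybridized to single-color NimbleGen arrays. The deposited values are log2 probe intensities, which the authors transformed into log2 format without averaging the probes. No background correction or normalization between arrays is named in the sources used here, and the array medians differ between lines. The array was designed on mouse build MM8. Its 72000 probes belong to 25631 targets, of which 69.4% were given a current symbol through their transcript identifiers (RefSeq table of GRCm38.p6), which left 17277 named genes and 7851 unnamed targets. Probe sequences were not used here.

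For each target the linear mean of its probes was taken, and after log2 the plate's mean of 10 seminal proteins was subtracted. Following the study's statistical methods, expression was called where the mean level of a line was more than 2 SD of those proteins. The comparison of lines used limma 3.58.1 (lmFit, then eBayes with a trend, in R 4.3.3), fitted to all 12 arrays at once after quantile normalization of the probes. Benjamini-Hochberg adjustment covered 25128 genes and targets, and an adjusted p under 0.05 was called. With 1 line below the threshold, the fold was bounded by the threshold or, where higher, the measured value, as the smallest bound of 3 scalings. No bound under 1 is given as a fold.

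The 10 genes and the other lists were chosen with earlier results of these data known, so no list is independent support. Apoc2, Clec7a, Cd68 and Apob were not matched on the array and were not analysed here. Each list supplied for each direction the 3 genes that differed most among those called, above the threshold in the higher line and without overlap between lines, of which those with a role given in the text are printed. A gene that the rule also names is not reported here. Data were simulated for the comparison of BV2 and N18 with 200 of 25128 genes changed. There limma recovered 27.5% of changes of 0.5, 91% of changes of 1 and 100% of changes of 2 on the log2 scale. Far more genes were called in the data (21.9% higher and 19.0% lower), so these rates do not give the recovery there. The alternatives tried were other scalings, background correction, probe and target averaging, filters, thresholds, control genes, the replicate block and leaving out each plate in turn. Precision is limited by having 4 arrays per line. Python 3.11.15 with pandas 2.3.3 and matplotlib 3.10.9 made the other tables and figures.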

Additional observations from a re-analysis of the deposited data

Results flagged for a closer look

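Among 30 groups of 4 plates (10 genes in 3 lines), 2 had a plate whose gap to the nearest of the others exceeded Dixon's 95% critical value for 4 samples, and chance alone flags about 1 group in 20. Both concern Gpnmb on plate 1 of its line, and both lines were below the threshold. The level of Gpnmb was 0.57 on BV2 plate 1 against 0.39 to 0.40 on the other BV2 plates, and 0.20 on N18 plate 1 against 0.07 to 0.09 on the other N18 plates.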

How the results depend on the processing

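Of 21 differences between lines in which at least 1 line was above the threshold, 12 kept their direction and their side of the test under all 24 alternatives, among them every comparison of Lgals3, Spp1 and Msr1 with BV2. Without normalization between arrays the sign turned for Abca1 between BV2 and N18 (-0.10), for Apoe (-0.64, adjusted p = 0.00104), Lpl (-0.23), Abca1 (-0.16) and Cd36 (-0.37) between BV2 and the AtT20-labelled plates, and for Abca1 (-0.063) and Abcg1 (-0.22) between N18 and those plates. Relative to the seminal proteins Abca1 turned to -0.13 between BV2 and N18, and with the median of log2 probes Apoe turned to -0.17 between BV2 and the AtT20-labelled plates. Over the 23 alternatives that set no minimum size of a difference the adjusted p of that difference of Apoe ran from 5.06e-07 to 0.581. The causes were not tested.

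Counts of the 10 genes called between BV2 and the AtT20-labelled plates went from 8 higher and 1 lower to 5 and 2 without normalization. They were 9 and 0 relative to the seminal proteins, 8 and 0 with dim genes filtered out, and 5 and 0 when a difference of at least 1 was required. Of all calls, the share higher in BV2 went from 36.2% to 13.5%, 74.2%, 47.3% and 44.4%, in the same order. Between N18 and the AtT20-labelled plates the counts of the 10 genes went from 2 higher and 5 lower to 1 and 7 without normalization. They were 4 and 1 relative to the seminal proteins and 3 and 3 with the median of probes. With a difference of at least 1 they were 1 and 2. Of all calls in this comparison, the share higher in N18 went from 36.4% to 24.03%, 78.8%, 45.6% and 42.01%, in the same order. In the other lists, 63 genes higher and 27 lower in BV2 than in N18 became 36 and 41 without normalization, 40 and 43 relative to the seminal proteins, and 30 and 16 with a difference of at least 1. For all genes the share of calls higher in BV2 went from 53.5% to 19.8%, 25.3% and 44.2%. The number of the 10 genes above the threshold was 5 in BV2 and 1 in N18 with olfactory receptor genes as controls, where the shares of all genes fell to 31.3% and 37.9%, the lost ones being Apoe, Lpl, Abca1 and Cd36 in BV2 and Abca1 and Abcg1 in N18. Without the highest seminal protein BV2 had 10, N18 had 4 and the AtT20-labelled plates had 2, where the shares of all genes were 58.8%, 61.9% and 42.8%, the gained ones being Gpnmb in BV2, Spp1 in N18 and Lgals3 and Gpnmb on the AtT20-labelled plates. With 3 SD, Apoe and Cd36 were below the threshold in BV2.

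Leaving out each plate in turn gave 8 to 10 genes higher and 0 to 0 lower between BV2 and N18, 8 to 8 and 1 to 1 between BV2 and the AtT20-labelled plates, and 2 to 3 and 3 to 5 between N18 and those plates. It gave 56 to 66 higher and 23 to 29 lower genes in the other lists. The genes above the threshold numbered 9 to 9 in BV2, 3 to 3 in N18 and 0 to 1 on the AtT20-labelled plates. Gpnmb lost its call between BV2 and N18 without BV2 plate 1 or 2 or N18 plate 2 or 3.

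Plates share only a number across lines. The correlation of their deviations from the line means ran from -0.105 to 0.319 for plates of the same number and from -0.490 to 0.360 for other plates. With the replicate number as a block, 9 of the 10 genes were called higher in BV2 than in N18, as without it, and Abcg1 between N18 and the AtT20-labelled plates had an adjusted p of 0.0447. Signal over background limits Gpnmb, which was below the threshold, and Apoe, Lpl and Cd36, whose BV2 levels are close to it.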
